A study of Mus musculus with 18 samples.

Results

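The 9 genes described here encode central parts of the TGF-beta and activin pathway: the ligands Tgfb1, Tgfb2 and Tgfb3, the latency protein gene Ltbp1, the receptors Tgfbr1, Tgfbr2 and Tgfbr3, and the activin subunits Inhba and Inhbb. They were chosen by symbol, each symbol matched 1 row of the deposited count table, and they make up 9 of its 55450 genes. RNA was sequenced from mammary tumors of 3 mouse models and from normal mammary glands, with 1 library for each of 18 C57Bl/6 females, so the mouse is the replicate. The groups were 5 B1/P/Rbf tumors (Brca1fl/fl/Trp53fl/fl/TgK18GT121Tg/+), 5 B1/P tumors (Brca1fl/fl/Trp53fl/fl), 5 P/Rbf tumors (Trp53fl/fl/TgK18GT121Tg/+) and 3 glands of wild-type mice matched for strain. Tumors were induced in adults by Ad5-CMV-Cre virus injected through the nipple of an abdominal gland. Cre deletes the floxed alleles and switches on T121, a fragment of SV40 large T antigen driven by the keratin 18 promoter that inactivates pRb, p107 and p130. The keratin 18 promoter is active in luminal epithelium, which limits T121 to cells that use it, whereas the CMV promoter drives Cre in any infected cell.

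TGF-beta is secreted in a latent form, bound to its own propeptide and tethered to the matrix by latent TGF-beta binding proteins such as that encoded by Ltbp1. Once released, it binds the type II receptor, which recruits and phosphorylates the type I receptor, and the type I receptor then phosphorylates Smad2 and Smad3. Activins, dimers of the Inhba and Inhbb products, signal to the same Smads through their own receptors. In mammary epithelium TGF-beta is best known as a brake on ductal growth, and in advanced carcinoma for its part in invasion and in the response of the stroma.

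Total expected counts were 27661173 to 37794889 per library. Across all samples, the 9 genes had between 28 and 15573 counts each in a library. Levels are given as CPM, counts scaled to a common library size with factors from the trimmed mean of M values (TMM). Levels of different genes are compared only as CPM per kilobase of exon. Whole-gene Trp53 lay at 6.75 to 24.3 CPM in the 15 tumors and 54.4 to 71.8 CPM in glands. Whole-gene Brca1 lay at 8.13 to 45.0 CPM in the Brca1fl/fl tumors, 44.9 to 116 CPM in P/Rbf tumors and 4.61 to 5.99 CPM in glands, and such counts do not separate the floxed exons from the others. The tumor with 45.0 CPM was B1/P/Rbf 208863, for which separate RT-qPCR had also shown a loss of Brca1 RNA that was only partial. Without it the B1/P/Rbf calls of Tgfb2 and Tgfbr3 against B1/P tumors were kept, and that of Tgfb1 was lost (edgeR adjusted p = 0.0508). The 3 glands carried much skeletal muscle, fat and lymphocyte RNA. Summed CPM of the 3 muscle markers Ckm, Acta1 and Myh4 was 17550 to 34870 in glands and at most 6.83 in tumors, except for 496 in B1/P tumor 248662. The 4 adipocyte markers summed to 3133 to 5170 in glands and at most 54.1 in tumors, and the 5 lymphocyte markers to 234 to 346 and at most 27.9. The label numbers place the B1/P/Rbf libraries and B1/P tumors 225068, 225070 and 246361 among libraries 1 to 8, and all others among 9 to 18. An earlier analysis of these data treated these as 2 sets, although no label names a batch and the study's methods describe no such sets. No gland or P/Rbf tumor was in the first set and no B1/P/Rbf tumor in the second. A fit with a term for these sets therefore estimates it from the B1/P tumors alone, 3 in the first set and 2 in the second. Its log2 fold changes against B1/P rest on the B1/P tumors of the same set. Where such a fit ends a call, fewer B1/P tumors and a difference between sets cannot be told apart.

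Differences were tested with edgeR's quasi-likelihood test in 1 fit of all 18 samples, and a gene was called when its p adjusted by Benjamini-Hochberg over 19186 genes was 0.05 or less. Fold changes are log2 with an approximate standard error (SE), the absolute log2 fold change divided by the square root of the test's F statistic. Intervals of 95% were formed from this SE by a normal approximation. All 9 genes passed the filter on low counts. Of the 9 genes, 3 were called in B1/P/Rbf compared to B1/P tumors (16.7% of all genes tested were): Tgfb1 was higher, and Tgfb2 and Tgfbr3 were lower. In P/Rbf against B1/P tumors, 3 of 9 were also called (19.2% of all genes): Tgfbr1 was higher, and Tgfb2 and Tgfbr3 were again lower. These comparisons share the B1/P tumors. Comparing the groups that both carry T121 with each other, edgeR called 0 of 9 (0.281% of all genes). There 2 members had an unadjusted p under 0.05, and DESeq2 and limma-voom also called 0. Against normal gland, 4 of 9 were called in B1/P/Rbf tumors (37.0% of all genes), 2 of 9 in B1/P tumors (33.8%) and 5 of 9 in P/Rbf tumors (37.7%).

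**Figure D1:**
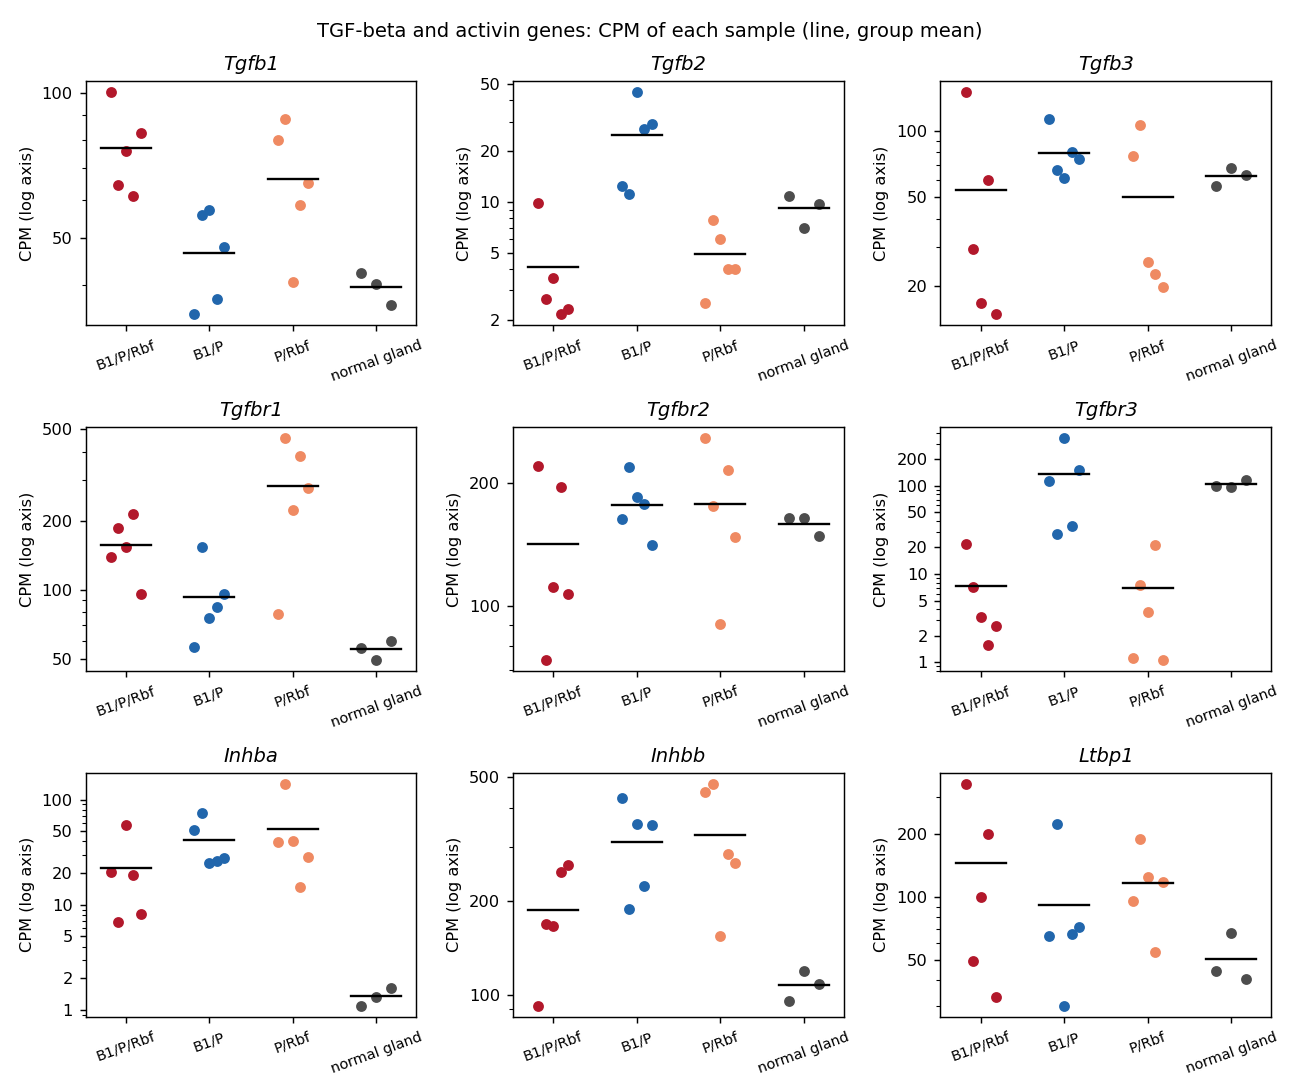
CPM of the 9 genes on log axes, with 1 point per sample in 4 groups and a line at each group mean. Tgfbr3 and Tgfb2 of every B1/P tumor lie above all B1/P/Rbf and P/Rbf tumors, and Inhba of every tumor lies above all 3 glands.

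**Figure D2:**
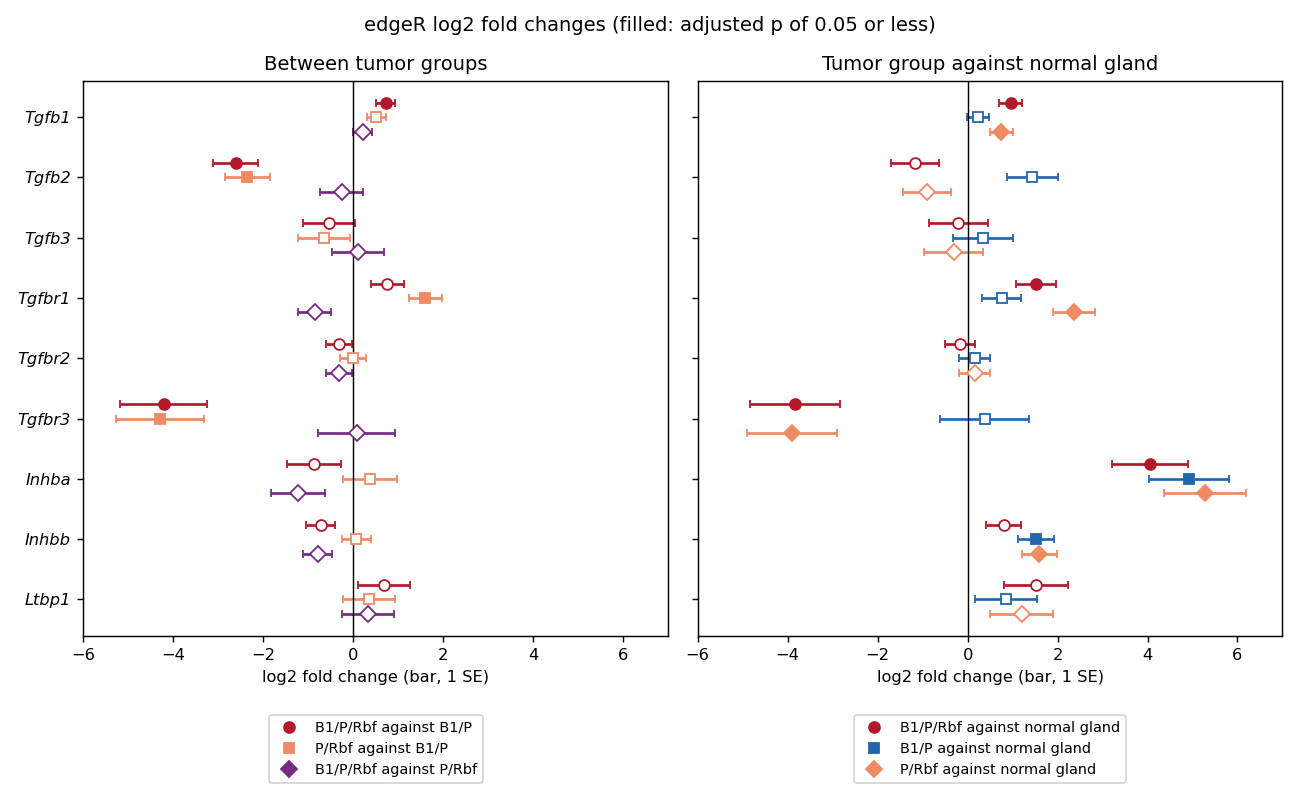
The log2 fold change of each gene from edgeR, with bars of 1 SE, between tumor groups on the left and against normal gland on the right. Filled symbols mark an adjusted p of 0.05 or less; the lowest values are those of Tgfbr3 and the highest those of Inhba.

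The promoter regions of Tgfb1 and Tgfb2 are shown because these ligands moved in opposite directions in B1/P/Rbf tumors. Both are the 250 bases before the gene's start from RefSeq on GRCm38.p6, printed 5′ to 3′ on the gene's strand, and RefSeq's table held entries for 7 of the 9 genes. Capitals mark matches on either strand to the TATA box form TATAAA, the E-box form CACGTG, the CCAAT box, the GC box form GGGCGG, the Smad-binding form CAGACA and the E2F-like form TTTNNCGC, searched as these letters alone. No match shares bases with another.
Tgfb2 (chr1:186705990-186706239, minus strand): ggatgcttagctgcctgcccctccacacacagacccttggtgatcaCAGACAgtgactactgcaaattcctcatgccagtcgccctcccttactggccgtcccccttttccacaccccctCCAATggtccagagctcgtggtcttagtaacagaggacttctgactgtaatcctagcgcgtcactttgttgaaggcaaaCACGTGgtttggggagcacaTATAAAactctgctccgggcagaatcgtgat
Tgfb1 (chr7:25686752-25687001, plus strand): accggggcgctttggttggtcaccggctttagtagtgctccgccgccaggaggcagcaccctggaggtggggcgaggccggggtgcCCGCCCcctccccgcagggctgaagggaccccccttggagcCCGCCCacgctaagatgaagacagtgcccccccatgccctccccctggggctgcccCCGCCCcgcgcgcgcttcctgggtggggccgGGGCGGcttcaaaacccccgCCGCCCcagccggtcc
The Tgfb2 window held 1 match each to the TATA box, E-box, CCAAT box and Smad-binding forms, with first bases 31, 51, 130 and 204 bases before the start. The Tgfb1 window held 5 matches to the GC box form and none to the other forms, and the E2F-like form was in neither. Among 32851 RefSeq promoter windows of the same length, 12.4% held the TATA box form, 6.02% the E-box form, 33.8% the CCAAT box, 32.7% the GC box form, 17.1% the Smad-binding form and 4.28% the E2F-like form. G and C together made up 75.2% of the Tgfb1 window and 53.6% of the Tgfb2 window. These are matches of letters, and nothing was measured at these windows here.

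Tgfb1, on chromosome 7 from 25687002 to 25705077 (plus strand, GRCm38), encodes the TGF-beta isoform that is most widely expressed in adult tissues. It stood at 61.1, 64.5, 75.7, 82.6 and 100.4 CPM in B1/P/Rbf tumors. The B1/P tumors had 34.7, 37.3, 47.9, 55.8 and 57.1 CPM. These groups did not overlap, and Tgfb1 was 1.65-fold higher in B1/P/Rbf tumors (log2 fold change 0.72 ± 0.22 SE, edgeR adjusted p = 0.0301, exact two-sided permutation p = 0.00794, the smallest that 5 against 5 can give). P/Rbf tumors had 40.5, 58.5, 65.2, 79.8 and 88.2 CPM, and 4 of the 5 lay above every B1/P tumor. That difference, 0.51 ± 0.22, was not called (edgeR adjusted p = 0.102), and without P/Rbf tumor 290860, the lowest, it was (0.0368). Normal glands had 36.4, 40.1 and 42.3 CPM, below all B1/P/Rbf tumors and within the range of the B1/P tumors.

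This Tgfb1 call was close to the threshold. It was lost when any of 6 tumors was left out: 208855 (edgeR adjusted p = 0.0739), 208863 (0.0508) or 210906 (0.0578) of B1/P/Rbf, and 225068 (0.0715), 255232 (0.0674) or 248662 (0.0504) of B1/P. Among libraries 1 to 8 alone the means were 76.9 and 49.2 CPM (5 and 3 tumors). The lack of overlap there follows from that between the full groups. A term for the library sets, which rests on the same B1/P tumors, gave a log2 fold change of 0.64 and an edgeR adjusted p of 0.107. Against normal gland, Tgfb1 was 1.94-fold higher in B1/P/Rbf tumors (0.96 ± 0.26, edgeR adjusted p = 0.0078) and 1.68-fold higher in P/Rbf tumors (0.75 ± 0.25, edgeR adjusted p = 0.0289). With the term for the library sets the B1/P/Rbf value was 0.75 and was not called (edgeR adjusted p = 0.199). The P/Rbf call was lost without P/Rbf tumor 287845 (edgeR adjusted p = 0.0636) or without gland 330154 (0.0571) or 330156 (0.0996). The summed level of epithelial markers was also higher in the T121 groups. Epcam, Krt8, Krt18, Cdh1 and Cldn4, all 5 of the list detected in every sample, summed to 2820 to 5407 CPM in B1/P/Rbf tumors, 4181 to 8527 in P/Rbf tumors, 757 to 2272 in B1/P tumors and 1461 to 1909 in glands. Taken singly against B1/P, Krt18, Cdh1 and Cldn4 passed the threshold upward in B1/P/Rbf, while Epcam and Krt8 did not pass it. In P/Rbf all 5 passed it upward. In these comparisons 16.7% and 19.2% of all genes passed in either direction. The part of epithelial cells in the Tgfb1 result was not tested. In bulk RNA, fewer cells of a type and less RNA per cell cannot be told apart, here and for every gene below.

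Tgfb2, on chromosome 1 from 186622792 to 186705989 (minus strand), encodes the isoform that binds the type II receptor weakly without the co-receptor betaglycan, the product of Tgfbr3. B1/P tumors had 11.2, 12.4, 27.2, 29.2 and 44.8 CPM. B1/P/Rbf tumors had 2.16, 2.31, 2.64, 3.53 and 9.81 CPM, the highest of these being tumor 208855. P/Rbf tumors had 2.50, 4.02, 4.03, 6.05 and 7.85 CPM. Every B1/P tumor therefore lay above all 10 tumors that carry T121. Relative to B1/P tumors, Tgfb2 was 6.10-fold lower in the B1/P/Rbf group (log2 fold change −2.61 ± 0.50 SE, edgeR adjusted p = 0.00261) and 5.10-fold lower in the P/Rbf group (−2.35 ± 0.50, edgeR adjusted p = 0.0045). Leaving out any 1 of the 18 samples ended neither call, and without tumor 208855 the first log2 fold change was −3.23.

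Glands had 6.97, 9.75 and 10.8 CPM of Tgfb2, between the B1/P tumors and most of the others. All 5 B1/P tumors were above all glands, yet this difference was not called (1.44 ± 0.58, edgeR adjusted p = 0.0625). It was called without B1/P/Rbf tumor 208855 (0.0275) or B1/P tumor 225068 (0.0446) or 225070 (0.0383). The difference of B1/P/Rbf tumors from gland, −1.17 ± 0.53, was not called either (edgeR adjusted p = 0.0969), and it was without tumor 208855 (0.00774). Within libraries 1 to 8 mean Tgfb2 was 4.09 CPM for B1/P/Rbf against 22.8 CPM for B1/P, and within libraries 9 to 18 it was 4.89 CPM for P/Rbf against 28.2 CPM for B1/P. Neither pair overlapped. Gm29491, annotated as antisense, overlaps Tgfb2, and whether the counting used strand is not given in the sources used here, so reads of the 2 genes may not be separate.

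Tgfb3, on chromosome 12 from 86056745 to 86079041 (minus strand), encodes the third isoform, known in the mammary gland for its rise at involution. Its level spread widely within the T121 tumors and was called in none of the 6 comparisons. B1/P/Rbf tumors had 14.8, 16.8, 29.4, 59.99 and 149.7 CPM, and P/Rbf tumors had 19.7, 22.4, 25.6, 77.4 and 106 CPM. The B1/P tumors lay closer together at 61.1, 66.5, 75.0, 80.2 and 113 CPM, and the glands at 56.5 to 67.8 CPM. Most T121 tumors were thus below every B1/P tumor, namely 4 of 5 B1/P/Rbf and 3 of 5 P/Rbf tumors, with the rest inside or above the B1/P range. The log2 fold change was −0.55 ± 0.58 in B1/P/Rbf against B1/P tumors (edgeR adjusted p = 0.552) and −0.65 ± 0.58 in P/Rbf against B1/P tumors (edgeR adjusted p = 0.445). Without tumor 208855, the B1/P/Rbf tumor with the most Tgfb3, the former was −1.39 (edgeR adjusted p = 0.0772). Ttll5 overlaps Tgfb3 on the other strand.

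Per kilobase of exon, Tgfb3 and Tgfb1 were the main ligand genes in every sample and Tgfb2 was the lowest of the 3. Tgfb1 made up 16.3% to 33.9% of the summed CPM per kilobase of the 3 ligands in B1/P tumors and 26.3% to 31.1% in glands. In B1/P/Rbf tumors its share was 30.2% to 77.4%, and in P/Rbf tumors 34.7% to 66.4%, so that each P/Rbf tumor and 4 of 5 B1/P/Rbf tumors had a larger Tgfb1 share than any B1/P tumor. The Tgfb2 share was 5.04% to 20.8% in B1/P tumors, 4.12% to 6.94% in glands, 1.23% to 2.96% in B1/P/Rbf tumors and 1.10% to 6.28% in P/Rbf tumors. These shares restate the levels above and were not tested.

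**Figure D3:**
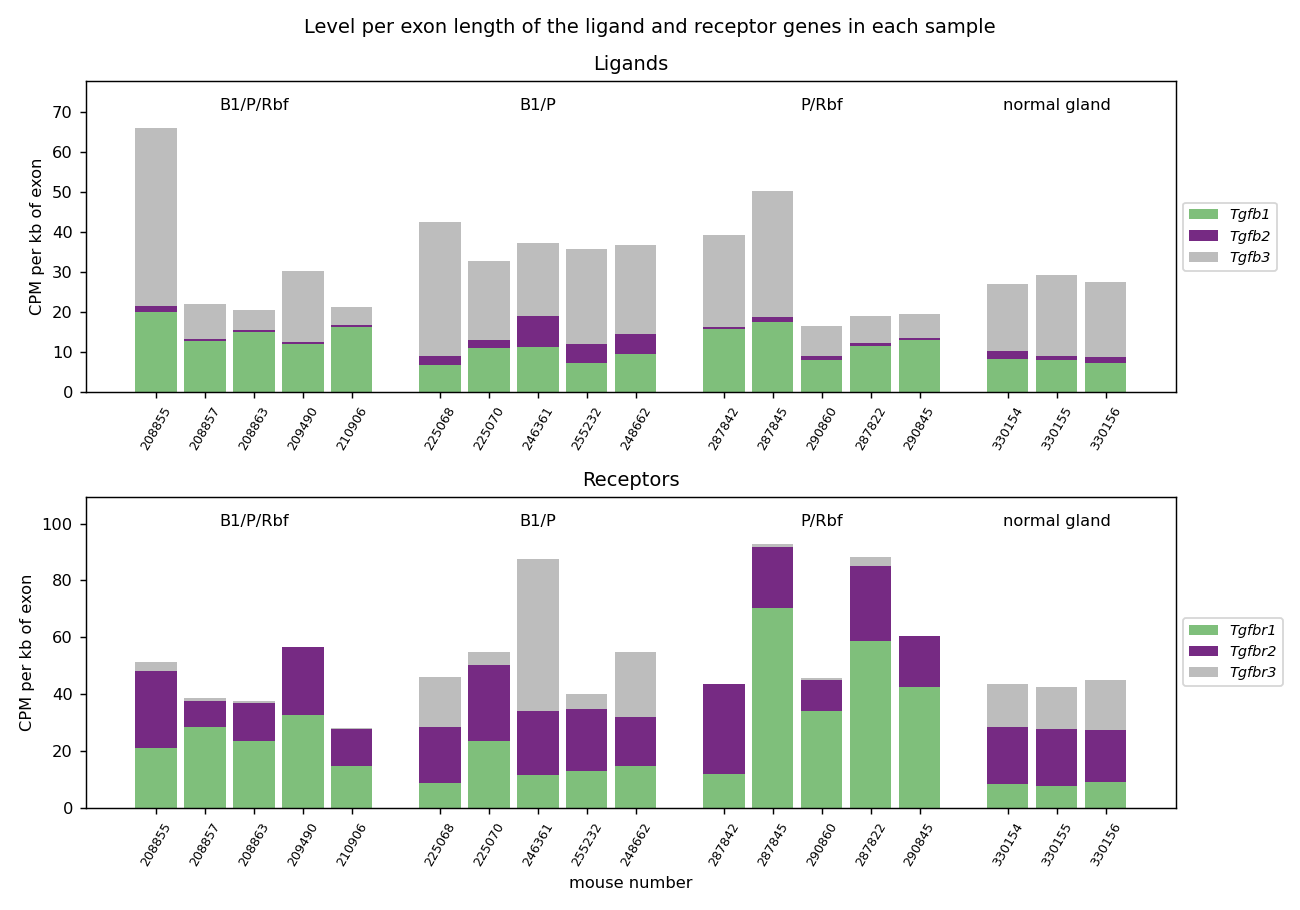
Stacked bars of CPM per kilobase of exon for the 3 ligand genes (top) and 3 receptor genes (bottom) in each of the 18 samples, labelled by mouse number. The Tgfb2 and Tgfbr3 layers are visible in B1/P tumors and glands and thin in most B1/P/Rbf and P/Rbf tumors, and the Tgfbr1 layer is tallest in 4 of 5 P/Rbf tumors.

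Ltbp1, on chromosome 17 from 75005568 to 75392512 (plus strand), encodes a matrix protein that covalently holds latent TGF-beta. It was called in no comparison and varied widely within the tumor groups. B1/P/Rbf tumors ran from 33.2 to 348 CPM with a median of 99.8, B1/P tumors from 30.1 to 223 CPM with a median of 66.5, and P/Rbf tumors from 54.4 to 190.0 CPM with a median of 118. The highest B1/P/Rbf tumor had 10.5 times the level of the lowest. Glands had 40.3, 44.0 and 67.4 CPM. Relative to gland the log2 fold change was 1.53 ± 0.71 in B1/P/Rbf tumors (edgeR adjusted p = 0.101), 0.85 ± 0.69 in B1/P tumors (0.357) and 1.20 ± 0.70 in P/Rbf tumors (0.187). The first of these was called without B1/P/Rbf tumor 210906 (0.0494), the lowest in Ltbp1, but was 0.92 without tumor 208855 (0.281), and the second was 0.21 without B1/P tumor 225070 (0.822). The fibroblast marker sum (Pdgfra, Col1a1, Col1a2, Dcn, Lum and Thy1) was highest within each tumor group in the same tumor as Ltbp1, namely B1/P/Rbf 208855 at 3077 CPM, B1/P 225070 at 7346 CPM and P/Rbf 287845 at 2917 CPM. Other tumors did not keep this order. B1/P tumor 246361 had the lowest Ltbp1 of its group, 30.1 CPM, with a fibroblast sum of 3718 CPM. B1/P/Rbf tumor 209490 had 199.6 CPM of Ltbp1 with a sum of 654 CPM. The part of fibroblasts in the spread of Ltbp1 was not tested.

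Tgfbr3, on chromosome 5 from 107106570 to 107289629 (minus strand), encodes betaglycan, the type III receptor, which presents TGF-beta to the type II receptor and also binds inhibins. Its log2 fold change was the lowest of the 9 genes in each comparison with B1/P tumors. B1/P tumors had 28.7, 34.8, 114, 150.4 and 349.9 CPM. B1/P/Rbf tumors had 1.55, 2.56, 3.28, 7.10 and 22.0 CPM, and P/Rbf tumors 1.05, 1.12, 3.75, 7.44 and 21.2 CPM. No T121 tumor reached the lowest B1/P tumor, although B1/P itself spanned a 12.2-fold range. Relative to B1/P tumors, Tgfbr3 was 18.6-fold lower in the B1/P/Rbf group (log2 fold change −4.21 ± 0.97 SE, edgeR adjusted p = 0.00757) and 19.6-fold lower in the P/Rbf group (−4.29 ± 0.97, edgeR adjusted p = 0.00664). For each of these, the exact two-sided permutation p on CPM was 0.00794, and leaving out any 1 of the 18 samples ended neither call. The size rested on single tumors: the first log2 fold change was −5.22 without B1/P/Rbf tumor 208855 and −3.49 without B1/P tumor 246361, and the second −5.34 without P/Rbf tumor 287822 and −3.57 without B1/P tumor 246361.

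Glands had 96.7, 98.7 and 116 CPM of Tgfbr3, also above every T121 tumor. Against gland, Tgfbr3 was 14.2-fold lower in B1/P/Rbf tumors (−3.83 ± 1.00, edgeR adjusted p = 0.00663) and 15.0-fold lower in P/Rbf tumors (−3.91 ± 1.00, edgeR adjusted p = 0.0057). Without tumor 208855 the former was −4.84, and without tumor 287822 the latter was −4.96. In B1/P tumors the difference from gland was 0.39 ± 0.99 with a 95% interval of −1.55 to 2.32, so the data were compatible with a change of several fold upward or nearly as much downward. The T121 groups differed from each other by 0.08 ± 0.85, with an interval of −1.60 to 1.75. Within libraries 1 to 8 mean Tgfbr3 was 7.30 CPM for B1/P/Rbf against 164 CPM for B1/P. Within libraries 9 to 18 it was 6.91 CPM for P/Rbf against 92.6 CPM for B1/P. The lack of overlap in each set follows from that between the full groups and is no separate result.

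The summed level of basal or myoepithelial markers was also lower in most T121 tumors. The 6 markers Krt5, Krt14, Trp63, Acta2, Myh11 and Oxtr summed to 332 to 1855 CPM in B1/P tumors, 35.5 to 276 CPM in B1/P/Rbf tumors, 64.9 to 1203 CPM in P/Rbf tumors and 280 to 409 CPM in glands, and all 6 were detected in every sample outside B1/P and 5 in every B1/P tumor. Of the 6, Trp63 and Oxtr were called lower than in B1/P tumors in each T121 group and the other 4 were not called. The fibroblast marker sum overlapped between the groups at 1580 to 7346 CPM in B1/P, 556 to 3077 CPM in B1/P/Rbf and 962 to 2917 CPM in P/Rbf tumors, but 4 of 5 B1/P/Rbf and 3 of 5 P/Rbf tumors lay below every B1/P tumor. Of its 6 markers, Thy1 was called lower in B1/P/Rbf tumors and Pdgfra and Thy1 in P/Rbf tumors, with list medians of −1.34 and −1.04. P/Rbf tumors 290860 and 287845 had basal sums of 1203 and 731 CPM, inside the B1/P range, with 3.75 and 7.44 CPM of Tgfbr3 and 6.05 and 7.85 CPM of Tgfb2. B1/P tumor 225070, with the lowest basal sum of its group at 332 CPM, had 28.7 CPM of Tgfbr3 and 11.2 CPM of Tgfb2. Within B1/P that tumor was thus the lowest in the marker sum and in both genes. Within B1/P/Rbf the tumor with the highest sum, 209490 at 276 CPM, was the lowest in both genes, at 1.55 CPM of Tgfbr3 and 2.16 CPM of Tgfb2. The 3 pericyte markers Rgs5, Cspg4 and Pdgfrb also moved with the groups. They summed to 281 to 573 CPM in B1/P, 106 to 362 CPM in B1/P/Rbf, 100.4 to 217 CPM in P/Rbf tumors and 233 to 328 CPM in glands, and all 3 were called lower in P/Rbf and 1, Pdgfrb, in B1/P/Rbf against B1/P tumors. The 4 hormone-sensing luminal markers Esr1, Pgr, Foxa1 and Prlr went the other way. They summed to 42.6 to 346 CPM in B1/P, 969 to 1253 CPM in B1/P/Rbf and 208 to 1085 CPM in P/Rbf tumors. Called higher than in B1/P tumors were Esr1, Pgr and Foxa1 in B1/P/Rbf and Esr1 and Foxa1 in P/Rbf tumors. The parts of basal cells, fibroblasts, pericytes and hormone-sensing cells in the Tgfbr3 and Tgfb2 results were not tested.

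**Figure D4:**
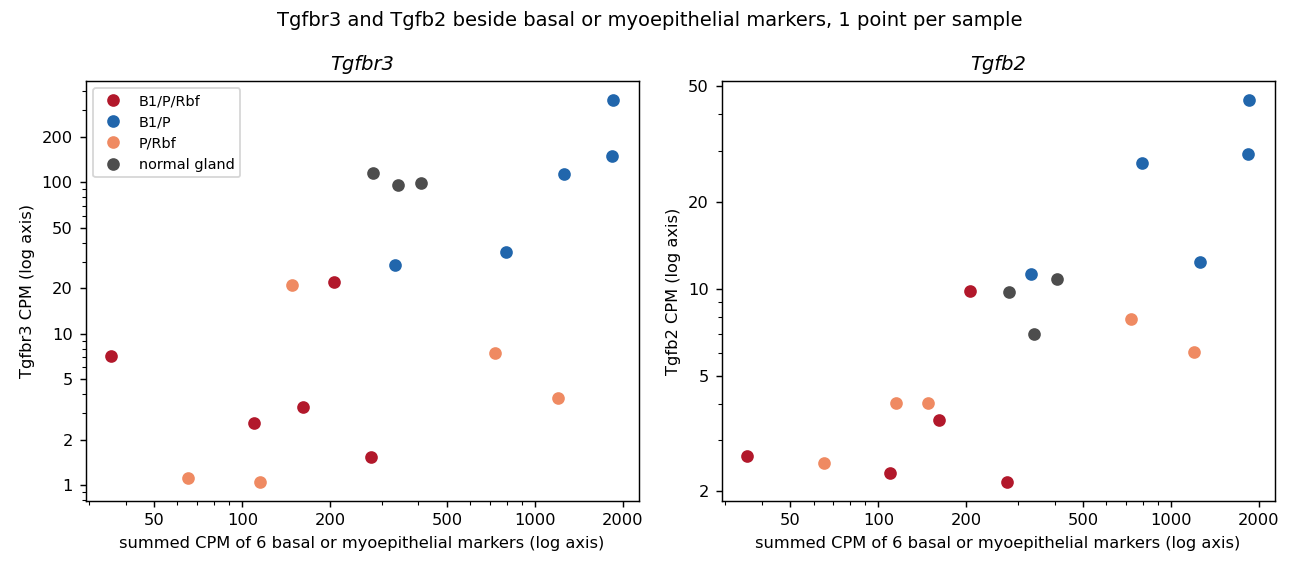
CPM of Tgfbr3 (left) and Tgfb2 (right) against the summed CPM of 6 basal or myoepithelial markers on log axes, 1 point per sample, coloured by group. P/Rbf tumors with marker sums of 731 and 1203 CPM lie among the B1/P tumors on the horizontal axis and below all of them on the vertical axis, and B1/P tumor 225070 is the lowest of its group on both axes.

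Tgfbr1, on chromosome 4 from 47353222 to 47414931 (plus strand), encodes the type I receptor kinase ALK5. Glands had the least, at 49.4, 55.5 and 59.96 CPM. B1/P tumors had 56.2, 75.4, 84.5, 96.1 and 154 CPM, B1/P/Rbf tumors 95.6, 138, 153, 187 and 213 CPM, and P/Rbf tumors 78.7, 222, 277, 383 and 459 CPM. Of the P/Rbf tumors, 4 were above every B1/P and every B1/P/Rbf tumor, and the fifth, 287842, was inside the B1/P range. Tgfbr1 was 3.05-fold higher in P/Rbf than in B1/P tumors (log2 fold change 1.61 ± 0.37 SE, edgeR adjusted p = 0.00755, exact two-sided permutation p = 0.0317). With a term for the library sets the log2 fold change was 1.65 and the edgeR adjusted p 0.0631. That value rests on the B1/P tumors of libraries 9 to 18 alone. There the means of 5 P/Rbf and 2 B1/P tumors were 284 and 90.3 CPM, with overlap.

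The Tgfbr1 difference of 0.76 ± 0.37 of B1/P/Rbf from B1/P tumors was not called (edgeR adjusted p = 0.168), nor was the difference of −0.85 ± 0.37 of B1/P/Rbf from P/Rbf tumors (edgeR adjusted p = 0.261). Relative to gland, Tgfbr1 was 5.17-fold higher in P/Rbf tumors (2.37 ± 0.47, edgeR adjusted p = 0.000782) and 2.86-fold higher in B1/P/Rbf tumors (1.52 ± 0.45, edgeR adjusted p = 0.0133), with no overlap in either case. Leaving out any 1 sample ended none of the 3 Tgfbr1 calls. With a term for the library sets the B1/P/Rbf value against gland was 1.44 and was not called (edgeR adjusted p = 0.153).

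Tgfbr2, on chromosome 9 from 116084293 to 116175360 (minus strand), encodes the type II receptor kinase. It was called in no comparison, and its group means stayed between 142 and 177 CPM. The tumor groups ran from 73.8 to 220.3 CPM (B1/P/Rbf), 141 to 219 CPM (B1/P) and 90.2 to 258 CPM (P/Rbf), and the glands from 148 to 164 CPM. The interval of the log2 difference was −0.57 to 0.57 for P/Rbf and −0.89 to 0.25 for B1/P/Rbf against B1/P tumors. The data were compatible with any difference in Tgfbr2 inside these intervals.

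The receptor genes thus differed in balance between groups. Per kilobase of exon, Tgfbr1 stood at 0.38 to 0.51 times the level of Tgfbr2 in glands and at 0.43 to 0.88 times in B1/P tumors. In B1/P/Rbf tumors the ratio was 0.79 to 3.17, and in P/Rbf tumors it was 2.23 to 3.27 in 4 tumors and 0.38 in tumor 287842. Tgfbr3 was 8.02% to 61.1% of the summed CPM per kilobase of the 3 receptor genes in B1/P tumors and 34.6% to 39.4% in glands, against 0.417% to 6.54% in B1/P/Rbf and 0.266% to 3.67% in P/Rbf tumors. These ratios follow from the levels above and were not tested.

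Inhba, on chromosome 13 from 16011851 to 16031621 (plus strand), encodes the beta A subunit of activin A. Its level was low in glands and higher in all tumors. Glands had 1.09, 1.34 and 1.62 CPM. B1/P/Rbf tumors had 6.91, 8.18, 19.4, 20.4 and 57.8 CPM, B1/P tumors 25.0, 26.4, 27.6, 51.8 and 74.2 CPM, and P/Rbf tumors 14.8, 28.2, 39.7, 40.3 and 141 CPM. The lowest tumor was above the highest gland, and the tumor groups overlapped each other. Relative to gland, Inhba was 16.6-fold higher in B1/P/Rbf tumors (log2 fold change 4.05 ± 0.85 SE, edgeR adjusted p = 0.00134), 30.2-fold higher in B1/P tumors (4.91 ± 0.89, edgeR adjusted p = 0.000471) and 38.9-fold higher in P/Rbf tumors (5.28 ± 0.91, edgeR adjusted p = 0.000235). Without tumor 208863, at 57.8 CPM, the B1/P/Rbf value was 3.34, and without tumor 287845, at 141 CPM, the P/Rbf value was 4.50, both still called. The difference from B1/P tumors was not called in B1/P/Rbf (−0.86 ± 0.60, edgeR adjusted p = 0.345) or P/Rbf tumors (0.37 ± 0.60, edgeR adjusted p = 0.697). These were −1.58 without tumor 208863 (edgeR adjusted p = 0.0821) and −0.41 without tumor 287845 (edgeR adjusted p = 0.624). Gm48444, annotated as antisense, overlaps Inhba.

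Inhbb, on chromosome 1 from 119415465 to 119422248 (minus strand), encodes the beta B subunit of activin B. It had the highest mean CPM per kilobase of the 9 genes in each group, at 25.3 ± 2.80 (SD, n = 3) in glands, 44.2 ± 16.2 (n = 5) in B1/P/Rbf, 72.8 ± 23.6 (n = 5) in B1/P and 76.6 ± 31.6 (n = 5) in P/Rbf tumors. In CPM, glands had 95.6, 109 and 119, and B1/P/Rbf tumors had 92.4, 167, 169.8, 248 and 262. The B1/P tumors had 189.6, 224, 353, 353 and 430.5 CPM, and the P/Rbf tumors 155, 265, 284, 448 and 477 CPM. All tumors but B1/P/Rbf 208855, the lowest at 92.4 CPM, lay above the glands. Relative to gland, Inhbb was 2.87-fold higher in B1/P tumors (1.52 ± 0.39, edgeR adjusted p = 0.00699) and 3.02-fold higher in P/Rbf tumors (1.60 ± 0.40, edgeR adjusted p = 0.0045). In B1/P/Rbf tumors it was not called (0.80 ± 0.38, edgeR adjusted p = 0.109), and without tumor 208855 it was (edgeR adjusted p = 0.0462).

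Per kilobase of exon, Inhbb exceeded Inhba in all 18 samples. The ratio was 100.3 to 133.5 in glands, 4.34 to 48.2 in B1/P/Rbf tumors, 3.84 to 21.2 in B1/P tumors and 5.07 to 28.7 in P/Rbf tumors. Markers of other cells moved with the comparisons against gland. Besides the muscle, fat and lymphocyte markers, the 4 endothelial markers Pecam1, Cdh5, Kdr and Tek summed to 322 to 361 CPM in glands and 62.0 to 264 CPM in tumors, and 3 in B1/P/Rbf, 3 in B1/P and 4 in P/Rbf tumors were called lower. Macrophage marker sums overlapped, at 331 to 407 CPM in glands and 156 to 2395 CPM in tumors. Of these 4 markers 2, 3 and 1 were called higher, and of the 5 epithelial markers 3, 2 and 3, where 37.0%, 33.8% and 37.7% of all genes were called in either direction. The part of these cells in the rises of Inhba, Inhbb, Tgfb1 and Tgfbr1 and in the fall of Tgfbr3 was not tested. The gland TMM factors were 0.788 to 0.858, and leaving TMM out moved the median log2 fold change of all genes against gland by 0.27 to 0.37. Exact two-sided permutation of CPM between 5 tumors and 3 glands gave p = 0.0357 for each of Inhba and Inhbb in B1/P and Tgfb1 and Tgfbr1 in B1/P/Rbf tumors, and 0.0179 for Tgfbr3 in each T121 group. It did not reach 0.05 for Inhba in B1/P/Rbf (0.107) and P/Rbf tumors (0.0714) or, in P/Rbf tumors, for Tgfb1 (0.0714), Tgfbr1 (0.0536) and Inhbb (0.0536), which edgeR called. The direction of each member called against gland was the same under every alternative scaling. With a term for the library sets, none of the 4 B1/P/Rbf calls against gland was kept (adjusted p = 0.0595 to 0.199). Their log2 fold changes were then −4.66 for Tgfbr3, 3.15 for Inhba, 1.44 for Tgfbr1 and 0.75 for Tgfb1, and no B1/P/Rbf tumor shared a set with a gland.

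In the order of levels per kilobase, Inhbb came first and Tgfb2 last in each tumor group, while Inhba was last in glands. In glands Inhbb lay above Tgfbr2, the next gene, without overlap, and the pairs Tgfbr3 above Tgfbr1, Tgfb1 above Ltbp1, Ltbp1 above Tgfb2 and Tgfb2 above Inhba were also apart. Among B1/P tumors Inhbb and the next gene, Tgfb3, did not overlap, and all other neighbours did. Among B1/P/Rbf and among P/Rbf tumors every pair of neighbours in the order overlapped. The rank of Tgfbr3 was 4 of 9 in glands and B1/P tumors and 8 of 9 in both T121 groups.

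Single tumors stood out across several of the genes. P/Rbf tumor 287845 was the highest of its group in 7 of the 9 genes (all but Tgfbr2 and Tgfbr3), and B1/P/Rbf tumor 208855 in 6 of 9 (Tgfb1, Tgfb2, Tgfb3, Tgfbr2, Tgfbr3 and Ltbp1). Within its group tumor 287845 also had the highest epithelial (8527 CPM), fibroblast (2917 CPM) and pericyte (217 CPM) marker sums. Tumor 208855 had the highest fibroblast (3077 CPM), endothelial (264 CPM), pericyte (362 CPM) and macrophage (495 CPM) marker sums of its group. The part of these cells was not tested. B1/P tumor 225070, which also had the highest macrophage marker sum of all samples (2395 CPM), was the highest of its group in Tgfbr1, Tgfbr2, Inhba and Ltbp1 and the lowest in Tgfb2, Tgfbr3 and Inhbb.

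The genes whose log2 CPM, centred on the group mean, followed each member most closely over the 15 tumors are given as a description, with Pearson r and Spearman rho, from all 19186 genes. For Tgfb1 they were Gbp3 (r = 0.93, rho = 0.91), Trim30d (0.93, 0.90) and Isg15 (0.92, 0.87), and for Tgfb2 they were Ric3 (0.94, 0.95), Map7d3 (0.91, 0.94) and Sele (0.88, 0.83). Tgfbr3 was followed by Spic (0.91, 0.87), Clec14a (0.88, 0.79) and Col4a2 (0.88, 0.89). Tgfbr1 was followed by Flot2 (0.90, 0.73), Ggh (0.89, 0.84) and Slc8b1 (0.85, 0.71). The nearest gene was Paqr6 for Tgfb3 (0.87, 0.81), Lrrc49 for Tgfbr2 (0.84, 0.79), Adamtsl4 for Inhba (0.84, 0.73), Prdm10 for Inhbb (0.81, 0.68) and Gm28231 for Ltbp1 (0.89, 0.97). Among the members themselves the closest pairs were Inhba with Ltbp1 (0.64, 0.71) and Tgfb2 with Tgfbr3 (0.64, 0.67). The points share libraries and tumor composition.

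The remaining pathway genes were read as 5 lists, whose counts stand beside 16.7% of all genes called in B1/P/Rbf and 19.2% in P/Rbf against B1/P tumors. Of 13 genes for latency and activation of TGF-beta, 1 rose and 1 fell from B1/P to B1/P/Rbf tumors, with a list median of −0.60 beside −0.06 over all genes, and 2 rose and 3 fell from B1/P to P/Rbf tumors, with a median of −1.06 beside −0.05. Both named genes encode integrin subunits that pair with alpha V to release active TGF-beta. Itgb8 was at 13.95 to 88.4 CPM in B1/P tumors, 0.908 to 9.97 CPM in B1/P/Rbf and 0.374 to 6.19 CPM in P/Rbf tumors. Its log2 fold change was −3.85 ± 0.72 in B1/P/Rbf (edgeR adjusted p = 0.00235) and −4.56 ± 0.75 in P/Rbf tumors (edgeR adjusted p = 0.00107), without overlap in either. Without tumor 210906 the first was −4.54, and without tumor 287822 the second −5.28. Itgb6 rose by 1.94 ± 0.58 (edgeR adjusted p = 0.0305) and 2.00 ± 0.58 (0.0247), with overlap in both. Both calls were lost with limma-voom (adjusted p = 0.0767 and 0.0648). The B1/P/Rbf call was also lost without tumor 208855 (log2 fold change 1.10, edgeR adjusted p = 0.127) or B1/P tumor 225068, 225070, 246361 or 248662, and the P/Rbf call without B1/P tumor 225068 or 246361 or P/Rbf tumor 290845.

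Of 12 other ligands and antagonists, 1 was called higher and 1 lower in each of the comparisons with B1/P tumors, a share like that over all genes. Fst, which encodes the activin-binding antagonist follistatin, was at 33.2 to 153 CPM in B1/P tumors, 1.73 to 36.0 CPM in B1/P/Rbf and 1.35 to 6.02 CPM in P/Rbf tumors. Its log2 fold change was −2.59 ± 0.70 in B1/P/Rbf (edgeR adjusted p = 0.0182) and −4.52 ± 0.76 in P/Rbf tumors (edgeR adjusted p = 0.00128). The B1/P/Rbf call was lost without B1/P tumor 246361 (edgeR adjusted p = 0.0538), and without tumor 208855 the value was −3.71. Within B1/P, Fst and Itgb8 were lowest in tumor 225070, which had the lowest basal marker sum (332 CPM), and Fst was highest in tumor 246361, which had the highest (1855 CPM), while Itgb8 was highest in tumor 225068 (1262 CPM). The part of basal cells, fibroblasts and pericytes in the falls of Fst and Itgb8 was not tested. Nodal, which encodes a ligand of early embryonic patterning, was called higher in both, but it had at most 2 counts in any B1/P tumor, 15 in any B1/P/Rbf tumor and 9 in any P/Rbf tumor, and no fold is given. Its call in P/Rbf tumors was lost with DESeq2 (adjusted p = 0.0506) and without any of 11 single samples (edgeR adjusted p up to 0.107), among them 8 tumors and all 3 glands. The list medians were −0.81 and −0.41.

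Among 12 other receptors and co-receptors, 1 rose and 4 fell from B1/P to B1/P/Rbf tumors (median −0.55), and 0 rose and 2 fell from B1/P to P/Rbf tumors (median −0.62). Acvr1b, which encodes the activin type I receptor ALK4, fell by 1.60 ± 0.32 in B1/P/Rbf tumors (edgeR adjusted p = 0.00348). Bmpr2, a BMP type II receptor gene, fell by 1.51 ± 0.41 (edgeR adjusted p = 0.0198), and its log2 fold change in P/Rbf tumors was −1.35 ± 0.41 (edgeR adjusted p = 0.0304). Both Bmpr2 values rested on B1/P tumor 255232, at 649 CPM against a B1/P median of 138 CPM: without it they were −0.81 and −0.65 and neither was called (0.062 and 0.116). With a term for the library sets the first was −0.42 and not called and the second −2.19 and called. The latter call was lost also without P/Rbf tumor 287842, 290860 or 287822. Acvrl1, the ALK1 gene of endothelium, fell by 1.19 ± 0.39 in B1/P/Rbf tumors (edgeR adjusted p = 0.044), a call lost when any of 11 single samples was left out (up to 0.1008), namely all but B1/P/Rbf 208855, B1/P 248662 and the 5 P/Rbf tumors. Nrp1, which encodes the co-receptor neuropilin 1, rose by 1.497 ± 0.43 (edgeR adjusted p = 0.024), a call lost without B1/P/Rbf tumor 208857 or 208863 or B1/P tumor 225068, 255232 or 248662 (0.0501 to 0.0569).

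Of 18 Smads and their regulators, 1 rose and 5 fell from B1/P to B1/P/Rbf tumors (median −0.25), and 0 rose and 3 fell from B1/P to P/Rbf tumors (median −0.13), the latter a smaller share than that over all genes. Smad9, a BMP-regulated Smad, fell in both comparisons (edgeR adjusted p = 0.0115 and 0.00728), from 0.251 to 1.84 CPM in B1/P tumors to at most 6 counts in any B1/P/Rbf tumor and 4 in any P/Rbf tumor. The inhibitory Smad6 fell by 1.73 ± 0.44 in B1/P/Rbf tumors (edgeR adjusted p = 0.014), and the ubiquitin ligase gene Smurf1 by 1.21 ± 0.27 (edgeR adjusted p = 0.00663). With a term for the library sets the log2 fold change of Smurf1 was −0.85 and was not called (edgeR adjusted p = 0.0504). Smad2, the substrate of the TGF-beta and activin type I receptors, rose by 0.92 ± 0.29 (edgeR adjusted p = 0.0389), a call lost without B1/P/Rbf tumor 208855, 208857 or 209490 or B1/P tumor 225068, 246361, 255232 or 248662 (0.0526 to 0.119).

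Of 12 genes known to be induced by TGF-beta, 0 rose and 2 fell from B1/P to B1/P/Rbf tumors (median −0.99), and 1 rose and 2 fell from B1/P to P/Rbf tumors (median −0.33). Pmepa1, an inhibitor of Smad signaling that TGF-beta induces, fell by 1.59 ± 0.45 in B1/P/Rbf tumors (edgeR adjusted p = 0.0241), a call lost without B1/P/Rbf tumor 208857, 208863 or 210906 or B1/P tumor 225068 or 248662 (0.0562 to 0.0623). Its log2 fold change in P/Rbf tumors was −0.19 ± 0.44 (edgeR adjusted p = 0.80). Tgfb1i1, which encodes the focal adhesion protein Hic-5, fell by 1.52 ± 0.40 (edgeR adjusted p = 0.015) and its log2 fold change in P/Rbf tumors was −1.39 ± 0.39 (edgeR adjusted p = 0.0212), a call lost without B1/P tumor 246361 or P/Rbf tumor 287842 or 290845 (0.0504 to 0.0538). With a term for the library sets the P/Rbf value was −0.69 and was not called (edgeR adjusted p = 0.362). Hic-5 is abundant in contractile cells, and the basal or myoepithelial marker sums given above moved with it in part. B1/P tumor 248662 had the least Tgfb1i1 of its group, 7.98 CPM, with a basal sum of 1829 CPM, and P/Rbf tumors 290860 and 287845, with sums of 1203 and 731 CPM, had at most 12.5 CPM of it. The fibroblast and pericyte markers called lower in the T121 groups are given above. The parts of basal cells, fibroblasts and pericytes were not tested.

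**Figure D5:**
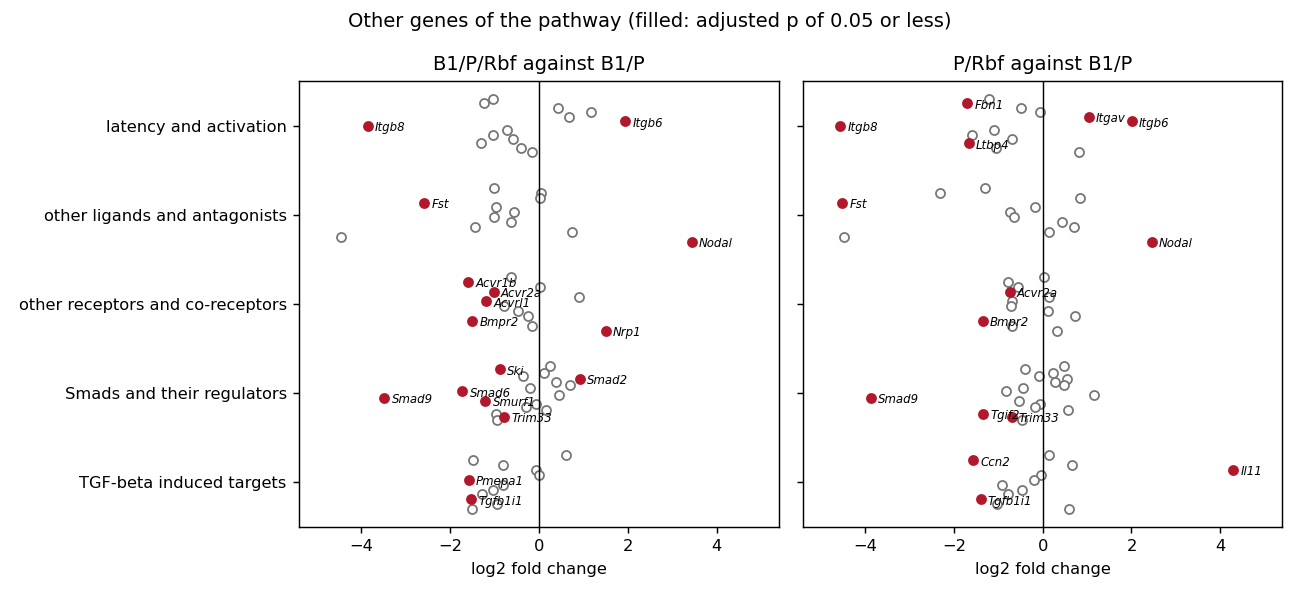
The log2 fold change of every tested gene of the 5 pathway lists in B1/P/Rbf (left) and P/Rbf tumors (right) against B1/P tumors. Filled and named points have an adjusted p of 0.05 or less; Itgb8 and Fst lie far to the left in both panels.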

How the data were processed

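Per the labels and the study's methods, total RNA of 18 mice was made into stranded mRNA libraries, pooled, sequenced in pairs of reads and trimmed with cutadapt 1.18. The authors deposited the expected counts of RSEM 1.3.0 per gene, without normalization or filtering, and 5.61% of these values were not whole. The methods name a human reference, the submitters' processing notes list human and mouse builds, and all 55450 identifiers are those of GENCODE M21 on mouse GRCm38, which gave positions and exon lengths. Counts were rounded, and genes with enough counts by filterByExpr (minimum count 10) were kept. edgeR 4.0.16 in R 4.3.3 was the main test, as it fits counts. CPM are TMM-scaled, with a prior count of 2 for log2 CPM. Exact permutation tests, ratios and figures were made in Python 3.11.15. Only the main edgeR fit was tested on simulated data, for B1/P/Rbf against B1/P tumors, and the alternatives and other comparisons were not. Depth was alike between libraries, and the spread between mice limits precision.

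The 9 genes and all lists were chosen with earlier results of these data known. From each pathway list the genes named are at most 4 called in B1/P/Rbf against B1/P tumors with the largest absolute log2 fold change, and for each member the 3 nearest genes by Pearson r were found, of which the text gives 3 or the first. Alternatives were DESeq2 1.42.0, limma-voom with quantile normalization (limma 3.58.1), plain library sizes in place of TMM, dropping the filter (32772 genes), a stricter filter asking for log2 CPM of 6 or more in 6 or more samples (4549 genes, 7 of the 9 members), fitting only the groups compared, a term for libraries 1 to 8 against 9 to 18, and leaving out each sample.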

Additional observations from a re-analysis of the deposited data

Results flagged for a closer look

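In 5 of 27 groups of 5 tumors tested over the 9 genes, 1 tumor lay further from the rest than Dixon's critical value of 0.71 allows for the gap over the group's range. Chance marks about 1 group in 20 where values are normally distributed, which CPM need not be: each of these tumors was the highest of its group, and on log2 CPM none of the 5 gaps passed (0.43 to 0.67 of the range). B1/P/Rbf tumor 208855 had 9.81 CPM of Tgfb2, with the next tumor at 3.53, and 22.0 CPM of Tgfbr3, with the next at 7.10. B1/P/Rbf tumor 208863 had 57.8 CPM of Inhba, with the next at 20.4. P/Rbf tumor 287845 had 141 CPM of Inhba, with the next at 40.3. B1/P tumor 225070 had 223 CPM of Ltbp1, with the next at 71.8.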

How the results depend on the processing

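No paired analysis was possible because each mouse has its own number. Of 366 values of the 54 member results under other settings, 330 kept their direction and their side of the threshold. The calls of Tgfb2 and Tgfbr3 against B1/P tumors were kept under each alternative that tested them, and the stricter filter removed Tgfb2 and Inhba. Member calls also lost were Tgfb1 in P/Rbf tumors against gland without a filter (adjusted p = 0.0515) and with the stricter filter (0.319), which also ended it in B1/P/Rbf tumors (0.0522). Tgfb2 in B1/P tumors against gland was called with DESeq2 (0.0266), limma (0.0137), without TMM (0.0211) and with only the groups compared (0.0465). Against gland, Inhbb (0.021) and Ltbp1 (0.0428) were called in B1/P/Rbf tumors without TMM, and Ltbp1 in P/Rbf tumors with only the groups compared (0.0351). In B1/P/Rbf against B1/P, the library-set term ended the calls of Bmpr2 (log2 fold change −0.42, adjusted p = 0.347), Nrp1 (1.32, 0.101), Smad2 (0.89, 0.109), Smurf1 (−0.85, 0.0504) and Pmepa1 (−1.36, 0.0875), and in P/Rbf against B1/P those of Itgb6 (log2 fold change 1.56, adjusted p = 0.23), Nodal (0.141) and Tgfb1i1 (−0.69, 0.362), the last −1.39 in the fit reported. Fitting only the groups compared ended the B1/P/Rbf calls of Fst (−2.57, 0.0516), Bmpr2 (−1.47, 0.0692), Smad2 (0.96, 0.0575) and Tgfb1i1 (−1.49, 0.055) and the P/Rbf call of Bmpr2 (−1.34, 0.108), which limma also ended (−1.10, 0.0577). Dropping the filter ended those of Acvrl1 (−1.17, 0.0681) and Smad2 (0.95, 0.0502) in B1/P/Rbf and of Nodal in P/Rbf tumors (0.0719), the last also lost without TMM (0.05003). The cause of these changes was not tested.

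Against gland, the stricter filter left 2 members called in B1/P/Rbf tumors, 1 for B1/P and 3 for P/Rbf, and the library-set term left 0 in B1/P/Rbf tumors. Genes called with the stricter filter, which tests fewer genes, were 886 and 867 against B1/P, 3 between the T121 groups and 1763, 1601 and 1668 against gland. Fitting only the groups compared gave 2039 and 1507 against B1/P and 1 between the T121 groups. The library-set term gave 2008 for P/Rbf against B1/P, 5 between the T121 groups and 3879 for B1/P/Rbf against gland. Between the T121 groups DESeq2 gave 1026, limma 26 and leaving out single samples 9 (without P/Rbf 287822) to 131 (without B1/P/Rbf 209490). For B1/P against gland leaving them out gave 4320 (without gland 330156) to 6633.

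Log2 fold changes that turned sign, none of them called, were as follows. For P/Rbf against B1/P, Tgfbr2 was −0.0003 with DESeq2, −0.18 with limma, −0.088 without TMM, −0.14 with the stricter filter and −0.0007 in the fit of only the groups compared, Inhbb was −0.091, −0.029 and −0.071 with limma, without TMM and with the stricter filter, and Nrp1 was −0.0073 with limma. For B1/P/Rbf against P/Rbf, the library-set term gave 0.049 for Tgfb2, −0.75 for Tgfbr3 and −0.29 for Ltbp1, and limma −0.016 for Tgfb3. For B1/P/Rbf against gland, Tgfb3 was 0.15 and Tgfbr2 0.19 without TMM. For B1/P against gland, Tgfb1 was −0.029 and Tgfbr2 −0.11 with the stricter filter, and Tgfbr3 was −0.23 with limma and −0.16 with the library-set term. For P/Rbf against gland, Tgfbr2 was −0.058 with limma and −0.24 with the stricter filter. Leaving out single samples gave, for P/Rbf against B1/P, −0.12 to 0.17 for Tgfbr2, −0.41 to 0.69 for Inhba, −0.11 to 0.25 for Inhbb, −0.28 to 0.55 for Nrp1 and −0.69 to 0.053 for Pmepa1. For B1/P/Rbf against P/Rbf it gave −0.73 to 0.58 for Tgfb3, −0.93 to 1.13 for Tgfbr3 and −0.29 to 0.58 for Ltbp1. It gave −1.05 to 0.036 for Tgfb3 in B1/P/Rbf and −0.34 to 0.65 for Tgfbr3 in B1/P tumors against gland.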

Other observations

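Several genes that act on or after TGF-beta signals were higher in all 3 tumor groups than in normal glands. The genes named here were chosen after their values were seen. Thbs1, which encodes the latent TGF-beta activator thrombospondin 1, was at most 72.7 CPM in glands and 118 to 1031 CPM in tumors, and its log2 fold change was 2.43 ± 0.68 SE in B1/P/Rbf (edgeR adjusted p = 0.0101), 2.60 ± 0.69 in B1/P (0.00794) and 3.42 ± 0.72 in P/Rbf tumors (0.00135). Exact two-sided permutation of its CPM gave p = 0.125, 0.0714 and 0.0357 in the same order. No B1/P/Rbf tumor shared a library set with a gland. The Smad corepressor genes Skil and Tgif1 were also above every gland in every tumor, with log2 fold changes of 1.17 to 1.40 and 2.11 to 2.67. In the list of TGF-beta induced targets, 4 of 12 genes rose and 1 fell in B1/P/Rbf, 7 rose and 0 fell in B1/P, and 6 rose and 1 fell in P/Rbf tumors against gland, where 37.0%, 33.8% and 37.7% of all genes were called, with list medians of 0.80, 1.57 and 1.53 beside 0.05, 0.12 and 0.05 over all genes. The muscle, fat, lymphocyte and endothelial marker sums were lower in every tumor than in any gland. Of the 4 macrophage markers 2, 3 and 1 were called higher in the same order of groups, and of the 5 epithelial markers 3, 2 and 3. Of the 6 fibroblast markers, Col1a1 and Col1a2 were called higher in B1/P tumors. Lum and Thy1 were called lower in B1/P/Rbf and in P/Rbf tumors. The fibroblast list medians were −0.84, 0.59 and −1.03 in the same order. The part of these cells was not tested.

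Genes of the same pathway that were high in glands and almost absent from tumors included Mstn, which encodes the muscle-derived ligand myostatin, at 119 to 140.2 CPM in glands and at most 0.378 CPM in any tumor. Acvr1c, which encodes the receptor ALK7 of adipose tissue, was at 75.0 to 144 CPM in glands and at most 0.567 CPM in any tumor.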
